A study of Homo sapiens with 16 samples.

Results

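The genes described here are 10 members of the Hippo pathway around the coactivator YAP and the TEAD transcription factors: YAP1, WWTR1, TEAD1, TEAD2, TEAD3, TEAD4, LATS1, LATS2, CCN1 and AMOTL2. They were chosen by symbol from 2 deposited tables, of which that of rRNA-depleted RNA lists 60669 genes. All 10 were found in both tables, and all 10 passed the filter on low values (at least 1 TPM in at least 3 libraries). The cells were HMC3, a line labelled as microglial, either wild type (WT) or labelled METTL3 KO, a knockout of the enzyme that places N6-methyladenosine (m6A) on RNA. No treatment or time point is given for either group, and whether the knockout is 1 clone is not given in the sources used here. From 100 ng of RNA each, 5 libraries per genotype were made with Smart-seq2, a poly(A) protocol, and 3 per genotype after removal of ribosomal RNA, which also keeps RNA that lacks a poly(A) tail.

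In the Hippo pathway a chain of kinases ends in LATS1 and LATS2, which phosphorylate the coactivators YAP (YAP1) and TAZ (WWTR1) and so keep them out of the nucleus. When the kinases are quiet, YAP and TAZ enter the nucleus, bind TEAD1 to TEAD4 on DNA and switch on genes such as CCN1 and AMOTL2, which are widely used as readouts. The pathway is known for reading cell contact and tension, and LATS2 and AMOTL2 are themselves targets that act back on YAP.

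The rRNA-depleted libraries were deposited as TPM, a level per gene length with the same total in each library, and the reads behind them were recovered from gene lengths: 266157 to 487272 per wild-type library and 512627 to 1267171 per knockout-labelled library. Knockout-labelled libraries 1 and 2 differed by no more than sampling noise (chi-square 1.02 per degree of freedom over 10120 genes, p = 0.065, against 1.16 to 1.53 for other pairs within a label). They were averaged and counted as 1 sample, so tests compare 3 wild-type with 2 knockout-labelled samples, and where nothing says that samples are separate cultures the spread may be technical. The targeted gene was not lower: METTL3 had 31.2, 31.6 and 25.4 TPM in the wild type and 39.2, 39.96 and 42.7 TPM in the libraries with the knockout label (log2 change 0.48, SE 0.19, limma adjusted p = 0.106), so this measure does not check the label. Of 10 microglial markers, 7 (P2RY12, TMEM119, CX3CR1, AIF1, ITGAM, PTPRC and SPI1) were listed at 0 in all 6 libraries and the highest value of the others was 6.47 TPM, while 6 fibroblast and pericyte markers summed to 11521 to 13944 TPM in the wild type and 5359 to 5452 TPM under the knockout label. Most of that sum was COL1A1 (9612 to 11995 TPM and 749 to 865 TPM in that order), whereas FN1 (803 to 871 and 2168 to 2237 TPM) and VIM (446 to 521 and 2157 to 2306 TPM) were higher under the knockout label. COL3A1, also in that list, was at or under 2.08 TPM in each library. The 3 epithelial markers summed to 41.8 to 64.02 TPM and 12.6 to 14.8 TPM in that order. Most of this was KRT8 (41.8 to 64.02 and 11.6 to 13.7 TPM), while EPCAM and CDH1 were at or under 2.81 TPM in each library. Sums for endothelium, astrocytes and neurons stayed at or under 4.84 TPM in each library. Whether these marker differences play a part in the results below was not tested. These are bulk samples, in which fewer cells of a type and less RNA per cell cannot be told apart.

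In the rRNA-depleted libraries 6 of the 10 members passed the threshold, an adjusted p under 0.05 over all genes tested, as did 35.3% of all genes. YAP1, TEAD1, TEAD4 and LATS2 were higher (4 of 10, against 22.9% of the 14789 genes tested) and CCN1 and AMOTL2 were lower (2 of 10, against 12.4%) under the knockout label. The median log2 change of the 10 was 0.77, and that of all genes tested 0.41. Because the latter is not 0, the changes of these 6 members are also given relative to it below. Relative to it WWTR1 stood at 0.63, TEAD2 at -0.03, TEAD3 at -0.23 and LATS1 at 0.92. Median ratio scaling, another way to put libraries on one scale, brought the median of all genes to 0.11 and the share of calls that were higher from 64.8% to 48.6%. The libraries of the 2 labels did not overlap for 7 of the 10 members, a state found in 58.4% of all genes tested. Without knockout-labelled library 3, 2 members were higher and 0 lower (1000 and 1027 of all genes), and without wild-type library 1 or 2 or 3 the lower members numbered 0, 1 and 1.

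**Figure D1:**
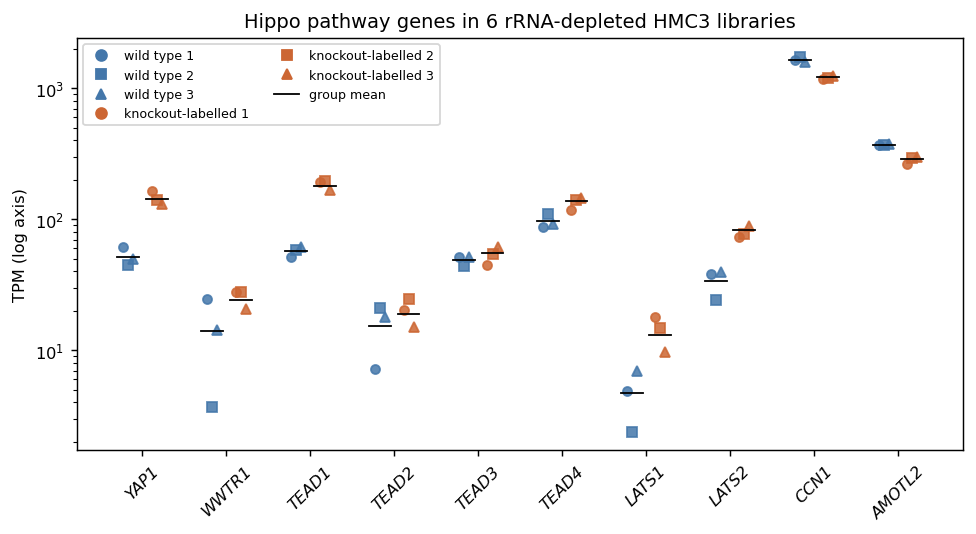
TPM (log axis) of each member in the 6 rRNA-depleted libraries, blue for wild type and orange for the knockout label, with the marker shape giving the replicate number and a line at the group mean (knockout-labelled libraries 1 and 2 averaged first). YAP1, TEAD1, TEAD4, LATS1 and LATS2 have every knockout-labelled point above every wild-type point, CCN1 and AMOTL2 the reverse, and WWTR1, TEAD2 and TEAD3 overlap.

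By level in the wild type, CCN1 came first at 1658 ± 73.8 TPM (SD, n = 3), followed by AMOTL2 at 371 ± 2.62 TPM and TEAD4 at 96.3 ± 11.6 TPM. TEAD1 (56.9 ± 4.70 TPM), YAP1 (51.9 ± 9.002 TPM) and TEAD3 (48.8 ± 4.02 TPM) followed. The library values of YAP1 overlapped those of both its neighbours, while each TEAD1 value lay above each TEAD3 value, by a narrow margin. LATS2 stood at 33.97 ± 8.57 TPM, TEAD2 at 15.3 ± 7.25 TPM, WWTR1 at 14.1 ± 10.4 TPM and LATS1 at 4.75 ± 2.27 TPM, and the last 3 overlapped in part. In the knockout-labelled samples the third place had passed to TEAD1, at 181 ± 19.03 TPM (SD, n = 2), ahead of YAP1 at 142 ± 14.5 TPM and TEAD4 at 137 ± 11.3 TPM, and those of YAP1 and TEAD4 overlapped.

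YAP1 (ENSG00000137693; chromosome 11, 102110461 to 102233423, plus strand, GRCh38), the coactivator that gives the pathway its output, was higher under the knockout label in the rRNA-depleted libraries. Its level was 61.9, 44.4 and 49.4 TPM in the wild type (values are in the order of the replicate numbers throughout) and 163.97, 140 and 131 TPM in the knockout-labelled ones. The lowest value under the knockout label lay far above the highest wild-type value. These levels rest on 27 to 55 reads per wild-type library and 128 to 321 reads per knockout-labelled library. YAP1 shares 628 exonic bases with AP000942.2 on the opposite strand, and no source used here says if reads were counted by strand. The ratio of group means was 2.73, and YAP1 rose by 1.44 on the log2 scale (SE 0.18, limma adjusted p = 0.00489), or 1.03 relative to all genes. In the authors' deposited table for poly(A) RNA, YAP1 had a log2 fold change of -0.67 (SE 0.27, adjusted p = 0.07) at a mean normalized count of 21.0, which does not pass the threshold. The signs in the 2 library types were opposite, and the difference between them was not tested, since the poly(A) table holds no value for a single library.

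WWTR1 (ENSG00000018408; chromosome 3, 149517235 to 149736714, minus strand), which encodes TAZ, varied more within the wild type than between labels. It was at 24.4, 3.69 and 14.2 TPM in the wild type and at 27.9, 28.0 and 20.7 TPM under the knockout label. Wild-type library 2 held 3 reads of WWTR1 and library 1 held 29, and the groups overlapped. The log2 change was 1.04 (SE 0.75, limma adjusted p = 0.331), and without wild-type library 2 it was 0.35 (limma adjusted p = 0.492). The authors' deposited table gave WWTR1 a log2 fold change of 0.20 (SE 0.08, adjusted p = 0.062) at a mean normalized count of 291. YAP1 made up 71.7%, 92.3% and 77.6% of the summed TPM of YAP1 and WWTR1 in the wild-type libraries and 85.5%, 83.3% and 86.4% in the knockout-labelled ones. The shares overlapped, and the summed TPM was 86.3, 48.1 and 63.7 in the wild type and 192, 168 and 152 under the knockout label.

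TEAD1 (ENSG00000187079; chromosome 11, 12674591 to 12944483, plus strand), one of the DNA-binding partners of YAP, was higher under the knockout label in both library types. Wild-type libraries had 51.9, 57.8 and 61.1 TPM and knockout-labelled libraries 191, 197 and 167 TPM. The groups lay far apart, from 57 to 105 reads per wild-type library and 266 to 741 per knockout-labelled library. The ratio of means was 3.18 and the log2 change 1.65 (SE 0.14, limma adjusted p = 0.002), or 1.24 relative to all genes. The authors' deposited table gave TEAD1 a log2 fold change of 0.49 (SE 0.13, adjusted p = 0.00147).

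TEAD4 (ENSG00000197905; chromosome 12, 2959330 to 3040673, plus strand) was the most abundant TEAD gene in the wild type. Its values were 87.3, 109 and 92.2 TPM there and 118, 140 and 145 TPM under the knockout label. Behind them stood 24 to 35 reads per wild-type library and 51 to 116 per knockout-labelled library. The groups did not overlap, but the gap between wild-type library 2 and knockout-labelled library 1 was small. TEAD4 rose by 0.51 on the log2 scale (SE 0.15, limma adjusted p = 0.046), close to the median of all genes, 0.10 above it. The log2 change of TEAD4 was 1.08 with the trend with GC content removed. With median ratio scaling it was 0.16 and its limma adjusted p 0.515, and the call was lost on leaving out wild-type library 1 (at 0.102) or 3 (0.098), or knockout-labelled library 2 (0.0891) or 3 (0.2595). In the authors' deposited table TEAD4 had a log2 fold change of -0.35 (SE 0.17, adjusted p = 0.15).

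TEAD3 (ENSG00000007866; chromosome 6, 35473597 to 35497076, minus strand) had 51.2, 44.2 and 51.1 TPM in the wild type and 45.1, 53.95 and 61.5 TPM under the knockout label, and the groups overlapped. Behind these values stood 13 to 26 reads per wild-type library and 29 to 60 per knockout-labelled library. The log2 change of TEAD3 was 0.18 (SE 0.17, limma adjusted p = 0.456). Its sign turned with the scaling: -0.17 with median ratio scaling and -0.20 with voom, which weights reads by their precision. In poly(A) RNA TEAD3 fell: the authors' deposited table put it at -0.96 on the log2 scale (SE 0.27, adjusted p = 0.00408) at a mean normalized count of 20.1. The difference between the library types was not tested.

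TEAD2 (ENSG00000074219; chromosome 19, 49340595 to 49362457, minus strand) was the least abundant of the 4 TEAD genes in both groups. It had 7.13, 20.8 and 18.1 TPM in the wild type and 20.2, 24.8 and 15.2 TPM under the knockout label, from 3 to 27 reads per library. The groups overlapped, and the log2 change of 0.38 (SE 0.52, limma adjusted p = 0.605) became -0.0655 without wild-type library 1. TEAD2 shares 319 exonic bases with CD37 on the opposite strand, as WWTR1 does 795 with WWTR1-AS1 and LATS1 408 with AL358852.1. Whether reads were counted by strand is not given in the sources used here. The authors' deposited table gave TEAD2 a log2 fold change of 0.67 (SE 0.72, adjusted p = 0.58) at a mean normalized count of 3.60.

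Within each library, a share of the summed TPM of the 4 TEAD genes does not depend on how libraries were scaled to one another. TEAD1 took 26.3%, 24.9% and 27.5% in the wild type and 51.04%, 47.45% and 43.03% in knockout-labelled libraries 1 to 3, a mean difference of 19.9 percentage points with no overlap. TEAD4 took 44.2%, 47.1% and 41.4% in the wild type and 31.5%, 33.6% and 37.3% under the knockout label. TEAD3 went from 25.9%, 19.03% and 22.96% to 12.05%, 12.97% and 15.8%. Both TEAD3 and TEAD4 had lower shares in every knockout-labelled library than in any wild-type library, while the shares of TEAD2 (3.61% to 8.98% and 3.90% to 5.97%) overlapped. The summed TPM of the family was 197, 232 and 223 in the wild type and 375, 416 and 389 under the knockout label. These shares were not tested. GC content differed within the family, at 41.3% in TEAD1 and 58.4% to 60.4% in the others. With the trend of the changes with GC removed, the log2 changes of the family lay closer together: 1.12 for TEAD1, 1.08 for TEAD4, 0.90 for TEAD2 and 0.73 for TEAD3.

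**Figure D2:**
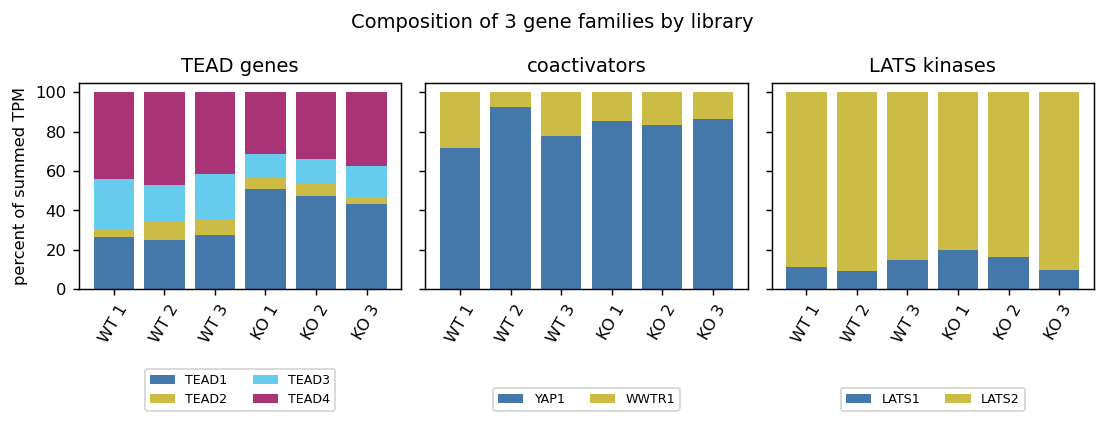
Percent of the summed TPM of each family taken by each gene, 1 bar per rRNA-depleted library (WT, wild type; KO, knockout label; numbers are replicates). TEAD1 fills 24.9% to 27.5% of the TEAD bar in the wild type and 43.03% to 51.04% under the knockout label, while the bars of the coactivators and of the LATS kinases overlap between labels.

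LATS2 (ENSG00000150457; chromosome 13, 20973032 to 21061547, minus strand), a kinase that phosphorylates YAP and TAZ and is also one of their targets, was higher under the knockout label. Wild-type levels were 38.1, 24.1 and 39.7 TPM, and those under the knockout label 72.7, 77.6 and 89.1 TPM. The groups did not overlap, on 13 to 37 reads per wild-type library and 77 to 158 per knockout-labelled library. LATS2 rose 2.42-fold by group means and by 1.28 on the log2 scale (SE 0.26, limma adjusted p = 0.0182), or 0.87 relative to all genes. Without knockout-labelled library 3, which leaves 1 sample with that label, its log2 change was 1.16 and its limma adjusted p 0.104. The authors' deposited table gave LATS2 a log2 fold change of 0.52 (SE 0.28, adjusted p = 0.196).

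LATS1 (ENSG00000131023; chromosome 6, 149658153 to 149718256, minus strand), the other kinase, had few reads. Its level was 4.92, 2.39 and 6.93 TPM in the wild type, from 2 to 10 reads, and 17.8, 14.9 and 9.71 TPM under the knockout label, from 13 to 47 reads. The groups did not overlap, and the ratio of means was 2.75. The change of LATS1 was 1.33 on the log2 scale (SE 0.54, limma adjusted p = 0.112; 0.71 with the GC trend removed) and passed the threshold with 6 separate libraries (0.0345) or voom (0.0135). In the authors' deposited table LATS1 stood at a log2 fold change of -0.03 (SE 0.15, adjusted p = 0.916). LATS1 made up 11.4%, 9.03% and 14.9% of the summed TPM of the 2 kinases in the wild type and 19.7%, 16.1% and 9.83% under the knockout label, which overlapped.

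CCN1 (ENSG00000142871; chromosome 1, 85580761 to 85583962, plus strand), older symbol CYR61, encodes a secreted matrix protein and is among the best known YAP and TEAD targets. It was lower under the knockout label in both library types. It had 1633, 1741 and 1599.7 TPM in the wild type and 1184, 1194 and 1247 TPM under the knockout label. No values overlapped, and 413 to 1070 reads stood behind each. The wild-type mean was 1.36 times the other, and CCN1 fell by 0.44 on the log2 scale (SE 0.10, limma adjusted p = 0.0224), or to -0.86 relative to all genes. The call was lost without wild-type library 1 (limma adjusted p 0.0551) and without knockout-labelled library 3 (0.102), as well as with no filter on low values (0.0529) and with the trend with GC content removed (0.0531), while its log2 change stayed between -0.80 and -0.32. The authors' deposited table gave CCN1 a log2 fold change of -0.47 (SE 0.08, adjusted p = 8.47e-07).

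AMOTL2 (ENSG00000114019; chromosome 3, 134355874 to 134375479, minus strand) encodes an angiomotin relative that binds YAP and is a YAP target as well. Wild-type libraries had 368, 372 and 373 TPM, and knockout-labelled libraries 262, 292 and 298 TPM. The wild-type values lay in a narrow band above all values of the other label. AMOTL2 fell by 0.37 on the log2 scale (SE 0.09, limma adjusted p = 0.0287), or to -0.78 relative to all genes, from 215 to 638 reads per library. The call was lost when any wild-type library or knockout-labelled library 3 was left out (limma adjusted p of 0.0532 to 0.129), and with the GC trend removed the log2 change of AMOTL2 turned to 0.15 (limma adjusted p 0.253). The median of all genes was 0.46 in that setting, so AMOTL2 still lay below it. With median ratio scaling the log2 change of AMOTL2 was -0.72. The authors' deposited table gave AMOTL2 a log2 fold change of -0.31 (SE 0.09, adjusted p = 0.00605). A processed pseudogene of RPL39 shares 187 exonic bases with AMOTL2 on the same strand.

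In poly(A) RNA 4 of the 10 members passed the threshold in the authors' deposited table: TEAD1 was higher (1 of 10, against 9.55% of 14009 genes) and CCN1, TEAD3 and AMOTL2 were lower (3 of 10, against 10.3%). The median log2 fold change of the 10 was -0.17 in the authors' deposited table, and that of all its genes with an adjusted p 0.02. The authors' deposited table does not name its numerator, and a positive value was read as higher under the knockout label because the 177 genes past the threshold in each library type that moved by 1 or more on both log2 scales then shared their sign in 91.5% of cases. With the wild type as numerator, each direction from it would turn around. TEAD1, CCN1 and AMOTL2 passed in both library types in the same direction, 3 of 10 against 7.15% of the 12498 genes measured in both. Signs matched for 6 of the 10 members, against 57.5% of those genes.

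**Figure D3:**
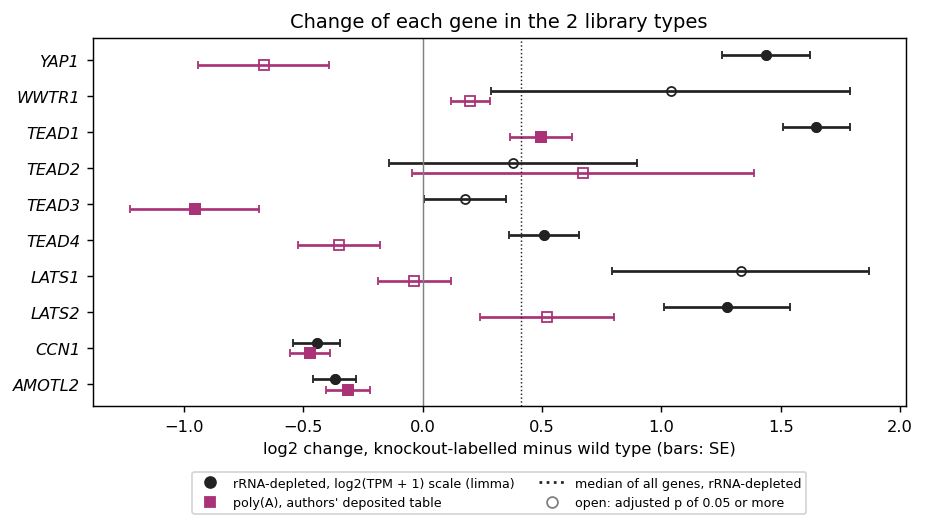
Log2 change of each member, knockout label minus wild type, with its SE, in rRNA-depleted RNA (black circles, log2(TPM + 1) scale) and in poly(A) RNA (purple squares, the authors' deposited table), filled where the adjusted p is under 0.05. The dotted line marks the median of all genes in rRNA-depleted RNA, 0.41. CCN1 and AMOTL2 lie below 0 in both, TEAD1 above 0 in both, and YAP1, TEAD3, TEAD4 and LATS1 on opposite sides.

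Changes in the rRNA-depleted libraries moved with the GC content of the transcript. Over 14669 genes the Spearman correlation was -0.37, a description across genes that share libraries, and the median log2 change went from 1.24 in the lowest of 10 GC bins to -0.41 in the highest. TEAD1 (41.3% GC) and YAP1 (43.5% GC) lay in bins with medians of 0.91 and 0.80, below their log2 changes of 1.65 and 1.44. WWTR1 (40.9% GC) and LATS1 (39.7% GC) lay in a bin with a median of 1.06. CCN1 (50.3% GC) and AMOTL2 (56.7% GC) had bin medians of 0.42 and -0.02, above their own values, and LATS2 (51.8% GC) one of 0.16. TEAD2, TEAD3 and TEAD4 (58.4% to 60.4% GC) shared a bin with a median of -0.08. After removal of the GC trend the log2 change was 1.12 for TEAD1 (limma adjusted p 0.00451) and 1.03 for YAP1 (limma adjusted p 0.0102), below the 1.57 of LATS2 (limma adjusted p 0.0115). TEAD4 stood at 1.08 (limma adjusted p 0.005), and TEAD3 then passed the threshold at 0.73 (limma adjusted p 0.0331). The median of all genes was 0.46 after this removal, so these values are not centred on 0.

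**Figure D4:**
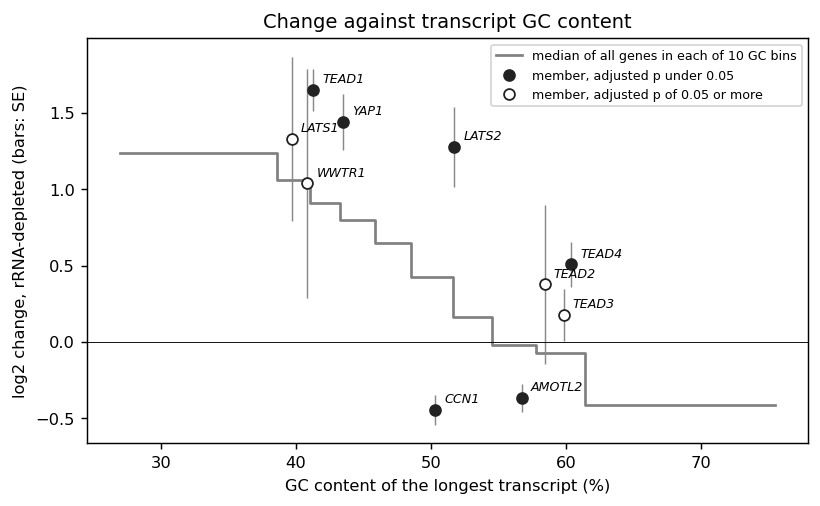
Log2 change in rRNA-depleted RNA (bars: SE) against the GC content of each member's longest transcript in percent, with the median of all tested genes in 10 GC bins as a grey step line. CCN1 and AMOTL2 lie well below the line, WWTR1 lies on it and the other 7 members lie above it.

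METTL3 places m6A mostly within a short consensus of which GGACT is the commonest form. GGACT was counted on the own strand of each member's longest annotated transcript and is given per kb, since longer transcripts have more room for it. CCN1 had 2.18 matches per kb (5 in all), AMOTL2 1.55 (7) and LATS2 1.45 (8), above the upper quartile of the tested genes (1.37 per kb). TEAD1 (0.59), WWTR1 (0.60), YAP1 (0.74) and TEAD2 (0.82) lay below their median of 0.89 per kb. Between that median and the upper quartile lay TEAD4 (1.18), LATS1 (1.06) and TEAD3 (1.01). A match is a run of letters and not a measured m6A site.

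The core of the TEAD binding site is GGAATG, or CATTCC on the other strand. It was searched in RefSeq windows from 250 bases before to 50 bases after annotated starts (GRCh38.p14). Positions below are counted from these RefSeq starts. That of LATS2 lies upstream of the gene span given above, and its match is in no GENCODE 29 exon. Windows were matched for 7 of the 10 members. CCN1, TEAD1 and TEAD4 had no window and were not searched. Of those 7 genes 3, YAP1, LATS2 and AMOTL2, had a match, against 16.7% of all 27305 genes with a window and 14.03% of all windows. Of the target signature genes described below, 7 of 14 with a window had one. The matches of the 3 members and of the signature genes PTPN14, TGFB2 and ANKRD1 are shown because these genes are described with their values here and passed the threshold in at least 1 library type, with the core in capitals, read 5′ to 3′ along the gene's strand.
YAP1, chr11:102110273-102110302, plus strand, first base of the core at -162 from the start: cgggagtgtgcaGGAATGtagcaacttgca
LATS2, chr13:21061560-21061589, minus strand, at 10 after the start: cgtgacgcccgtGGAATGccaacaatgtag
AMOTL2, chr3:134374499-134374528, minus strand, at -69 from 1 of 2 annotated starts and in an exon of a longer transcript: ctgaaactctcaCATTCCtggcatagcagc
PTPN14, chr1:214551785-214551814, minus strand, at -200: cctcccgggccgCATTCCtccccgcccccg
TGFB2, chr1:218345139-218345168, plus strand, at -185: tgtcagggcgcaCATTCCacctccttcctc
ANKRD1, chr10:90921290-90921319, minus strand, the farther of 2 matches, at -220: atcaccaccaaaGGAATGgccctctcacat
Of these 6 genes, YAP1 and LATS2 were higher and AMOTL2 and PTPN14 lower in rRNA-depleted RNA, so a match went with either direction.

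Other genes of the pathway, a list of 23 kinases, scaffolds and cofactors, were all tested in the rRNA-depleted libraries, where 7 were higher (22.9% of all genes were) and 2 lower (12.4%). Their median log2 change was 0.65 against 0.41 for all genes. MOB1B and MOB1A, partners that switch on LATS kinases, rose by log2 changes of 2.55 (SE 0.38, limma adjusted p = 0.00714) and 1.75 (SE 0.31, limma adjusted p = 0.0113). MOB1B rested on 3 to 9 reads per wild-type library. TAOK1, a kinase upstream of the chain, rose by 1.75 (SE 0.28, limma adjusted p = 0.00908). AJUBA and LIMD1, LIM proteins that hold LATS kinases back, fell by 0.93 (SE 0.11, limma adjusted p = 0.00441) and 0.82 (SE 0.22, limma adjusted p = 0.0379). AJUBA went from 380, 315 and 340 TPM in the wild type to 171, 187 and 180 TPM. Without knockout-labelled library 3 the counts were 4 higher and 1 lower, and MOB1B (limma adjusted p 0.0554), TAOK1 (0.052) and LIMD1 (0.153) were no longer called. LIMD1 was also lost without wild-type library 1 (0.0828) or 3 (0.0777), which left 1 lower gene, and MOB1A with the GC trend removed (0.0508).

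For the same 23 genes the authors' deposited table held 6 higher (9.55% of all its genes were) and 1 lower (10.3%), with a median log2 fold change of 0.14. FAT1, a giant cadherin, was the highest of those called with at least 50 mean normalized counts in the authors' deposited table, at 0.69, followed by MOB1B at 0.52 and AMOTL1, a relative of AMOTL2, at 0.37. FAT1, MOB1A and MOB1B were higher in both library types, which is 3 of 7 and 3 of 6 of the genes called and 3 of the 23 listed, against 7.15% of all genes called in both in the same direction. FRMD6, a cortical protein upstream of the kinases, was called in opposite directions: it rose by 1.37 on the log2 scale in rRNA-depleted RNA (SE 0.23, limma adjusted p = 0.00953; 0.74 with the GC trend removed) and had -0.69 in the authors' deposited table (SE 0.07). FRMD6 had 42.1, 27.5 and 31.2 TPM in the wild type and 91.5, 96.9 and 80.9 TPM under the knockout label. TAOK1, AJUBA and LIMD1, called in rRNA-depleted RNA, had 0.31, -0.12 and -0.06 in the authors' deposited table, none past the threshold.

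The third group was a published signature of YAP and TAZ targets without CCN1, AMOTL2 and LATS2, 19 genes of which 18 were tested, since FOXF2 was listed at 0 in all libraries. In rRNA-depleted RNA 6 were higher (22.9% of all genes) and 4 lower (12.4%), and their median log2 change of 0.32 lay 0.09 below that of all genes. ASAP1, a regulator of Arf GTPases, rose by 2.66 on the log2 scale (SE 0.15, limma adjusted p = 0.00105), from 19.7, 19.997 and 22.4 TPM to 144, 141 and 130 TPM. RBMS3, an RNA-binding protein, rose by 2.51 (SE 0.52, limma adjusted p = 0.0181) from 2 to 5 reads per wild-type library. NT5E, the surface enzyme CD73, rose by 2.34 (SE 0.35, limma adjusted p = 0.00764) from 4 to 6 reads per wild-type library. IGFBP3, which binds insulin-like growth factors, fell by 1.23 (SE 0.23, limma adjusted p = 0.0134), on 7 to 20 reads per library. PTPN14, a phosphatase that binds YAP, fell by 0.96 (SE 0.11, limma adjusted p = 0.0036). ARHGEF17 fell by 0.61 (SE 0.15, limma adjusted p = 0.0317), but stood at 0.0854 with the GC trend removed, where the median of all genes was 0.46. Without knockout-labelled library 3 the counts were 3 higher and 1 lower, and RBMS3 (limma adjusted p 0.107), IGFBP3 (0.0931) and ARHGEF17 (0.124) were not called. ARHGEF17 was also lost without wild-type library 2 (0.0641) or 3 (0.0731), and the count of lower genes was 2 without either of these.

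Poly(A) RNA gave the signature 3 higher (9.55% of all genes) and 3 lower genes (10.3%) of 18 in the authors' deposited table, with a median log2 fold change of 0.10 against 0.02 for all genes. NT5E stood at 2.73 (SE 0.19) in the authors' deposited table, ASAP1 at 0.38 and CRIM1, a membrane protein, at 0.35. The 3 lower genes in the authors' deposited table were TGFB2 (-2.13, SE 0.12), a growth factor, ANKRD1 (-0.83, SE 0.18), a nuclear ankyrin-repeat protein used as a readout like CCN1, and F3 (-0.45, SE 0.16), which starts blood clotting. ASAP1 and NT5E were higher in both library types, 2 of 6 and 2 of 3 of the genes called and 2 of the 18 tested (7.15% over all genes in the same direction), and none was lower in both. IGFBP3, PTPN14 and ARHGEF17, lower in rRNA-depleted RNA, had 0.74, 0.27 and 0.22 in the authors' deposited table, none past the threshold. TGFB2, ANKRD1 and F3 did not pass in rRNA-depleted RNA, with log2 changes of 0.78, 0.52 and 0.87. ANKRD1 passed there as higher, opposite to poly(A) RNA, with quantile normalization (limma adjusted p 0.0487) and with 6 separate libraries (0.0148; 0.0307 with the replicate block), and stood at 0.0982 with the GC trend removed. TGFB2 stood at 0.37 without knockout-labelled library 3 and at 0.11 with the GC trend removed, and F3 at 0.34 without wild-type library 3. CCN2, the closest relative of CCN1 in the list, passed in neither: it had 445, 549 and 614 TPM in the wild type and 469, 466 and 425 TPM under the knockout label (limma adjusted p = 0.273; lower by the threshold with median ratio scaling, at -0.61 and 0.0416), with 0.34 (adjusted p = 0.444) in the authors' deposited table. CCN2 was chosen for mention after its values were seen.

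**Figure D5:**
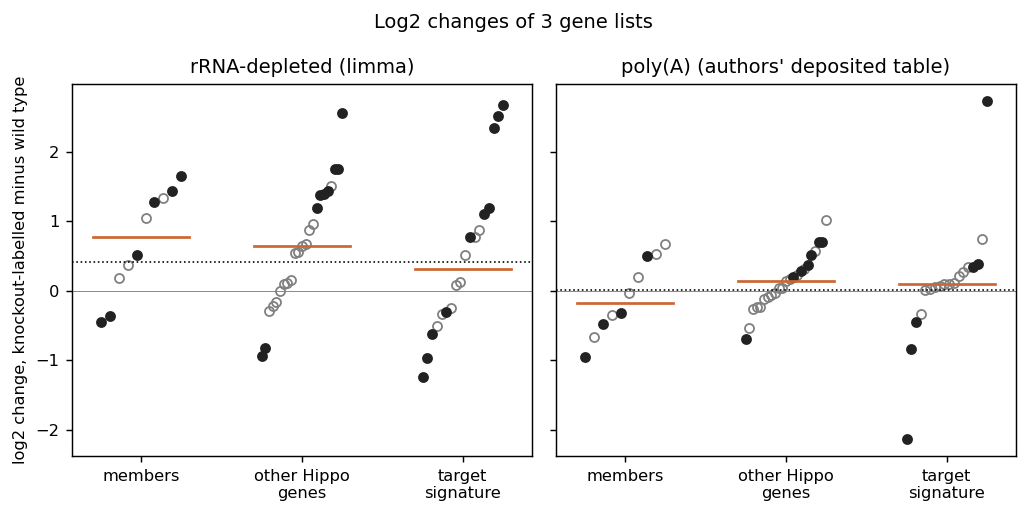
Log2 change, knockout label minus wild type, of each tested gene in 3 lists, for rRNA-depleted RNA (left) and the authors' deposited table of poly(A) RNA (right). Points are filled where the adjusted p is under 0.05, orange lines mark list medians and dotted lines the median of all genes. The lists hold genes on both sides of 0 in both panels, and the members' median is 0.77 on the left and -0.17 on the right.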

How the data were processed

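RNA-seq of HMC3 cells was used through 2 deposited tables. Per the submitters' processing notes, Trimmomatic, STAR, DESeq2 and hg38 were used; roles, versions, counting tool and annotation are not given in the sources used here. Per the file headers, the poly(A) table holds 1 comparison by the authors, giving each gene its mean normalized count (a signal over all libraries), the log2 fold change and SE, a Wald statistic (a score) and p-values before and after adjustment. It holds no value per library and was not retested. The rRNA-depleted table holds TPM made by the authors, whose columns carry genotype and replicate number.

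Gene lengths, positions and transcript GC content came from GENCODE 29 (GRCh38), which matched 93.8% of gene identifiers. Reads were recovered from TPM times length; 90.9% of values above 0 came out whole to within 0.02 reads. Libraries were compared in pairs by chi-square over genes that were whole in both and held at least 10 reads. The test was limma 3.58.1 in R 4.3.3 (lmFit, eBayes with trend) on log2(TPM + 1), with genotype as the term, for genes that reached 1 TPM in 3 or more libraries, and Benjamini-Hochberg adjustment over all genes at 0.05. Fold changes on this scale understate those of low genes. The fit was tested on simulated reads with few changed genes and no trend with GC content, unlike these data. Alternatives changed the pseudocount, filter, scaling, GC trend, sample handling, unit and threshold, or left out each library. Python 3.11.15, numpy 2.4.6, pandas 2.3.3, scipy 1.17.1 and matplotlib 3.10.9 were used.

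Members and lists were chosen with earlier results of these data known. Besides METTL3 and the members, genes named are, per list and library type, up to 3 that rose and 3 that fell most past the threshold, with a mean of at least 5 TPM or 50 normalized counts. Counts of reads carry counting error only, and no molecular identifiers are stated.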

Additional observations from a re-analysis of the deposited data

How the results depend on the processing

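YAP1 and TEAD1 kept direction and call under all 16 alternatives, with log2 changes of 1.03 to 1.57 and 1.12 to 1.76. LATS2 lost its call under 2, CCN1 under 5, and AMOTL2 and TEAD4 under 8 and 9, each counting the adjusted p threshold of 0.01. No alternative turned LATS2, CCN1 or TEAD4. Signs turned for AMOTL2 (0.15 with the GC trend removed), TEAD2 (-0.0655 without wild-type library 1, and up to 0.648 without another), TEAD3 (-0.17 with median ratio scaling, -0.20 with voom), ARHGEF17 (0.0854 with the GC trend removed) and CRIM1 (-0.23 with median ratio scaling, -0.0535 with the GC trend removed, -0.13 with voom). The cause was not tested. Of the members 4 were higher and 2 lower: lower counts were 0 with no filter on low values, 1 with quantile normalization and 0 with the GC trend removed, and at an adjusted p of 0.01 2 were higher and 0 lower. Leaving out 1 library gave 2 to 4 higher and 0 to 2 lower. In poly(A) RNA, 0 were higher and 0 lower past 1 in size on the log2 scale in the authors' deposited table. Over all genes, voom gave 3509 lower, an adjusted p of 0.01 gave 1401 higher and 841 lower, and leaving out 1 library gave 1000 to 3343 higher and 1027 to 1842 lower. The lowest of these came without knockout-labelled library 3, when 1 sample is assumed to vary like the wild type. Other Hippo genes counted 1 lower with no filter, 4 with median ratio scaling, 5 with voom and 1 at 0.01, and 4 to 6 higher and 1 to 2 lower with 1 library left out. Target genes counted 2 lower with the GC trend removed, 7 with voom and 1 at 0.01, and 3 to 6 higher and 1 to 3 lower with 1 library left out. METTL3 passed only with 6 separate libraries (log2 change 0.46, limma adjusted p 0.0486). Its log2 change was 0.13 with median ratio scaling and 0.0288 with the GC trend removed. In the authors' deposited table METTL3 had a log2 fold change of 0.09 (SE 0.11, adjusted p = 0.654). Deviations of same-numbered libraries from their group means correlated at -0.02 to 0.02. These deviations hold counting noise, so the values do not decide whether the replicate numbers pair libraries, and no pairing is stated. With the replicate block on 6 separate libraries, 4 members were higher and 2 lower. Depth limits LATS1, WWTR1 and TEAD2, with 2 to 29 reads per wild-type library. It also limits TEAD3, TEAD4 and LATS2, with 13 to 26, 24 to 35 and 13 to 37 reads in that order.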
